A study of Mus musculus with 6 samples.

Results

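The nuclear genes of mitochondrial complex II, complex III and ATP synthase were followed in RNA-seq libraries of islets, FXR-/- against FXR+/+. The members were taken by symbol: *Sdha*, *Sdhb*, *Sdhc*, *Sdhd*, *Cyc1* and every symbol that begins with Uqcr or Atp5. This gave 30 of the 19342 genes in the count table. Of these, 4 encode the subunits of complex II, 9 those of complex III and 15 those of ATP synthase, and the other two, *Atp5s* and *Atp5sl*, carry the name of ATP synthase without encoding a subunit of it. All 30 passed the filter on low counts, as did 14619 genes in all. The data are 6 RNA-seq libraries from isolated islets of mice aged 3 months, with a female 1, a male 1 and a male 2 library for wild-type mice and the same for mice that lack FXR, the bile acid receptor encoded by *Nr1h4*. The FXR knockout mice were C57Bl/6 in the study's methods, which give no separate strain for the FXR+/+ mice. The methods name no tissue to which the knockout is limited. Neither the labels nor the methods say how many mice each library holds, and a p-value here measures the spread between these libraries.

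Complex II, succinate dehydrogenase, passes electrons from succinate to ubiquinone, and it is the enzyme shared by the citric acid cycle and the respiratory chain. Complex III passes electrons from reduced ubiquinone to cytochrome c and moves protons out of the matrix, and ATP synthase lets protons back through its rotor to make ATP. In β-cells the ATP made in this way closes potassium channels of the plasma membrane, and insulin secretion follows. A bulk library cannot tell fewer cells of a type from less RNA per cell.

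The library totals ran from 20629306 to 30139235 counts, and levels are given as counts per 1000000 counts (CPM) of a library scaled by TMM, which equalises the bulk of genes across libraries. *Nr1h4* read 14.2, 13.6 and 12.2 CPM in the FXR+/+ female 1, male 1 and male 2 libraries and 5.67, 7.62 and 5.80 CPM in the FXR-/- libraries, a log2 fold change of -1.07 ± 0.16 SE (unadjusted p = 0.00022, adjusted p = 0.216 in edgeR). The targeted gene and the labels went the same way, and transcripts of the gene were still counted in all 3 knockout libraries. *Ins1* and *Ins2* together took 17.5% to 23.9% of counts. Transcripts of other pancreatic cells were present in every library. The 23 acinar markers summed to between 49322 and 147760.0 CPM in FXR+/+ and between 70036 and 168283 CPM in FXR-/-, with 21 of the 23 higher in FXR-/- and 2 at an unadjusted p under 0.05 (8 when the model held a replicate block). The 7 endothelial markers summed to 439 to 532 CPM in FXR+/+ and 545 to 876 CPM in FXR-/-, and 4 of them were higher at an unadjusted p under 0.05, among them *Plvap* (6 with the block). The 8 macrophage markers summed to 112 to 152 CPM and 150.04 to 184 CPM, with 4 higher at that threshold (5 with the block). Of all tested genes 6.18% were higher at that threshold and 9.82% with the block. No marker of these 3 lists was at 0 in any library. With a term for acinar RNA in the model, 5 of the 30 genes were at an unadjusted p under 0.05 (*Uqcrq*, *Uqcr11*, *Atp5k*, *Atp5e* and *Sdhc*), all of them higher in FXR-/-, beside 5.4% of all genes higher in that fit, and the median log2 fold change of the 30 was 0.11. The part of the endothelial cells and macrophages in the results below was not tested.

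Most of the 30 genes had a small positive fold change in FXR-/- islets, and none passed correction. Their summed level was 2904 to 2981 CPM in FXR+/+ and 2867 to 3379.8 CPM in FXR-/-, so the groups overlapped. In the quasi-likelihood model of edgeR, which included sex, 26 of the 30 had a positive log2 fold change of FXR-/- over FXR+/+ and 4 a negative one, and the median over the 30 was 0.12 (1.08-fold) beside 0.0084 over all genes tested. Leaving out 1 library at a time moved the median of the 30 to 0.07 without the FXR+/+ male 1 or the FXR-/- male 1 library and to 0.19 without either female library. The values ran from -0.09 for *Sdha* to 0.42 for *Uqcrq*. With library size alone 17 of the 30 were higher with a median of 0.02, while the median of all genes moved to -0.09. Under either scaling 26 of the 30 lay above the median of all genes. In raw counts the 30 genes took 0.317%, 0.284% and 0.313% of the FXR+/+ libraries and 0.309%, 0.302% and 0.312% of the FXR-/- libraries, and on that scale the groups overlapped.

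Of the 30 genes, 5 were higher in FXR-/- at an unadjusted p under 0.05: *Uqcrq*, *Uqcr11*, *Atp5k*, *Atp5e* and *Atp5h*. The same threshold called 6.18% of all tested genes higher. None of the 30 was lower at that threshold, which called 4.15% of all genes lower. With library size alone the calls over all genes turned from 903 higher and 607 lower to 437 higher and 1069 lower, and 3 of the 30 were higher beside 2.99% of all genes. Every FXR-/- library lay above every FXR+/+ library for 3 of the 30 (*Uqcrq*, *Atp5e* and *Atp5h*) and for 8.01% of all genes, and every FXR-/- library lay below for none of the 30 and for 7.37% of all genes. After Benjamini-Hochberg adjustment over all genes, edgeR called none of the 30, and 0% of the 14619 genes. With the replicate number as a block it called 23 genes and DESeq2 called 158, and neither list held any of the 30. The lowest adjusted p among the 30 was 0.388 in edgeR, 0.125 with the block and 0.105 in DESeq2. The number at an unadjusted p under 0.05 rested on single libraries. It was 1 (*Uqcrq*) without the FXR-/- male 2 library, beside 4.78% of all genes higher in that fit, and 3 without the FXR+/+ male 1 library, where the share of all genes rose to 8.63%. It was 8 without the FXR+/+ female library (4.75% of all genes) or without the FXR-/- female library (4.8%).

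**Figure D1:**
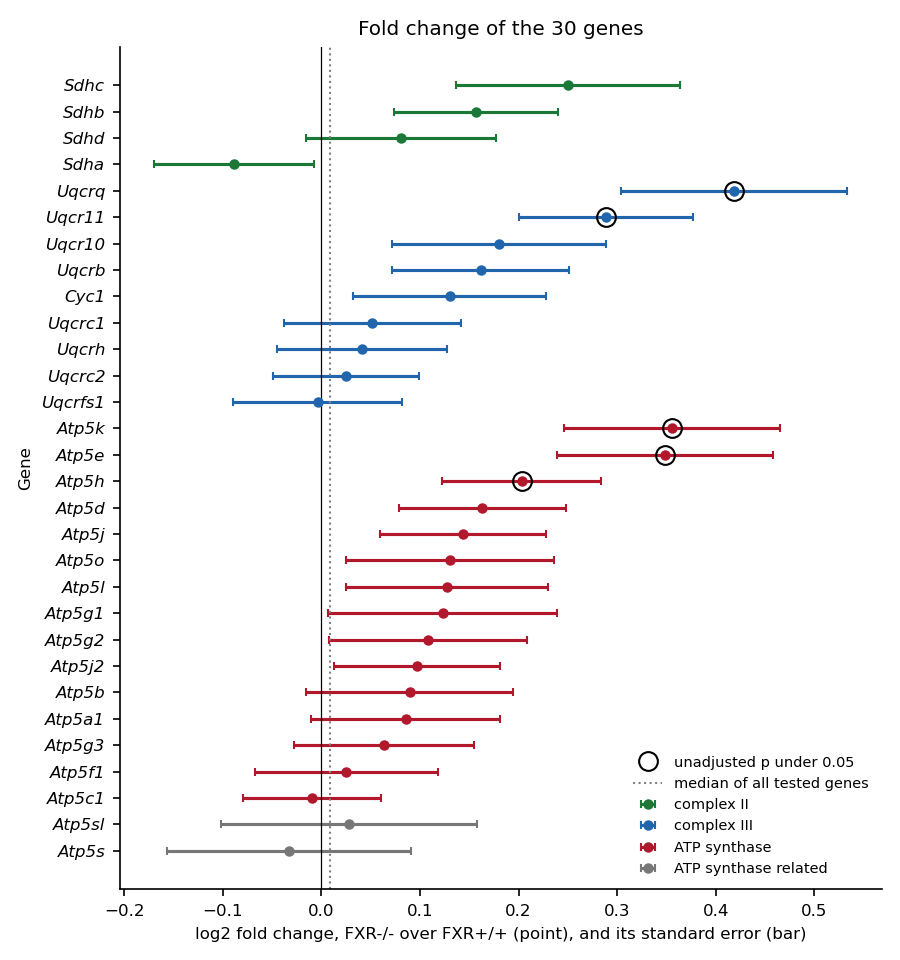
Log2 fold change of FXR-/- over FXR+/+ (points, x axis) with its standard error (bars) for the 30 genes (y axis), grouped and coloured by complex and ordered within each complex, in 6 libraries. Circles mark the 5 genes at an unadjusted p under 0.05, and the dotted line is the median of all tested genes, 0.0084; 26 points lie above 0 with TMM scaling and 17 would with library size alone.

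Of the 4 genes of complex II, none reached an unadjusted p under 0.05, and their median log2 fold change was 0.12. *Sdha* encodes the flavoprotein that oxidises succinate. It read 261, 251 and 269 CPM in the FXR+/+ female 1, male 1 and male 2 libraries and 241, 241 and 252 CPM in the FXR-/- libraries in the same order. The knockout value was the lower one in all 3 same-numbered pairs, and only the FXR+/+ male 1 and FXR-/- male 2 values overlapped (log2 fold change -0.09 ± 0.08 SE, unadjusted p = 0.308, adjusted p = 0.677 in edgeR). *Sdhb* encodes the iron-sulfur subunit, which carries electrons from the flavin to ubiquinone. It read 41.1, 45.8 and 45.0 CPM in FXR+/+ and 42.9, 55.0 and 49.5 CPM in FXR-/-, with the female knockout library inside the wild-type range (log2 fold change 0.16 ± 0.08 SE, adjusted p = 0.520 in edgeR, and 0.09 without the FXR-/- male 1 library). *Sdhc* and *Sdhd* encode the membrane anchors, which hold the ubiquinone site. *Sdhc* read 50.2, 44.1 and 55.3 CPM in FXR+/+ and 51.6, 64.9 and 62.4 CPM in FXR-/-, so both male knockout libraries lay above all wild-type libraries and the female one did not (log2 fold change 0.25 ± 0.11 SE, unadjusted p = 0.061, adjusted p = 0.486 in edgeR). Leaving out 1 library at a time moved its log2 fold change from 0.13 (unadjusted p = 0.202 in edgeR, without the FXR+/+ male 1 library) to 0.36 (without the FXR-/- female library). *Sdhc* was the only gene of the 30 that crossed an unadjusted p of 0.05 with the replicate block and not without it. *Sdhd* read 78.0, 69.9 and 71.5 CPM in FXR+/+ and 71.8, 85.6 and 74.7 CPM in FXR-/-, and the groups overlapped (log2 fold change 0.08 ± 0.10 SE, adjusted p = 0.754 in edgeR). The summed level of the 4 genes was 410.4 to 441 CPM in FXR+/+ and 407 to 446 CPM in FXR-/-, the wild-type range lying inside that of the knockout, with *Sdha* and the other 3 genes on opposite sides of 0.

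Complex III gave the gene with the lowest p of the 30. *Uqcrq* encodes a small accessory subunit of complex III that sits beside the ubiquinone-binding cytochrome b, and the gene lies on the minus strand at chr11:53427922-53430831 of GRCm38 in GENCODE vM21. It read 69.1, 73.7 and 65.3 CPM in FXR+/+ and 76.8, 109.8 and 94.0 CPM in FXR-/-. The groups did not overlap, the female 1 knockout library being the nearest to the wild-type values (log2 fold change 0.42 ± 0.11 SE, 1.34-fold, unadjusted p = 0.00734, adjusted p = 0.388 in edgeR). *Uqcr11* encodes another small accessory subunit and lies at chr10:80402997-80406830 on the minus strand. It read 51.9, 61.4 and 56.0 CPM in FXR+/+ and 56.1, 75.6 and 76.7 CPM in FXR-/-. Both male knockout libraries were above every wild-type library, while the female knockout library was within their range (log2 fold change 0.29 ± 0.09 SE, unadjusted p = 0.0125, adjusted p = 0.430 in edgeR).

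The other 7 genes of complex III had log2 fold changes from -0.0039 to 0.18, none at an unadjusted p under 0.05. Of the subunits that carry electrons, *Cyc1* (cytochrome c1) averaged 41.0 ± 2.69 CPM in FXR+/+ and 45.1 ± 6.71 CPM in FXR-/- (SD, n = 3 each), and *Uqcrfs1*, the Rieske iron-sulfur protein, averaged 57.4 ± 1.76 and 57.4 ± 4.79 CPM. The core proteins face the matrix and carry no redox centre. *Uqcrc1* averaged 63.7 ± 3.49 and 66.2 ± 6.59 CPM, and *Uqcrc2* 94.3 ± 0.913 and 96.0 ± 5.0 CPM. Of the remaining small subunits, *Uqcr10* averaged 39.5 ± 2.13 and 45.2 ± 7.50 CPM, *Uqcrb* 70.3 ± 4.53 and 78.7 ± 5.90 CPM, and *Uqcrh*, the hinge protein at the cytochrome c1 surface, 50.2 ± 1.90 and 51.7 ± 3.94 CPM. The difference between the means was smaller than the SD of the knockout libraries in 6 of the 7, the exception being *Uqcrb*, where it exceeded the SD of either group without reaching the threshold (unadjusted p = 0.113).

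**Figure D2:**
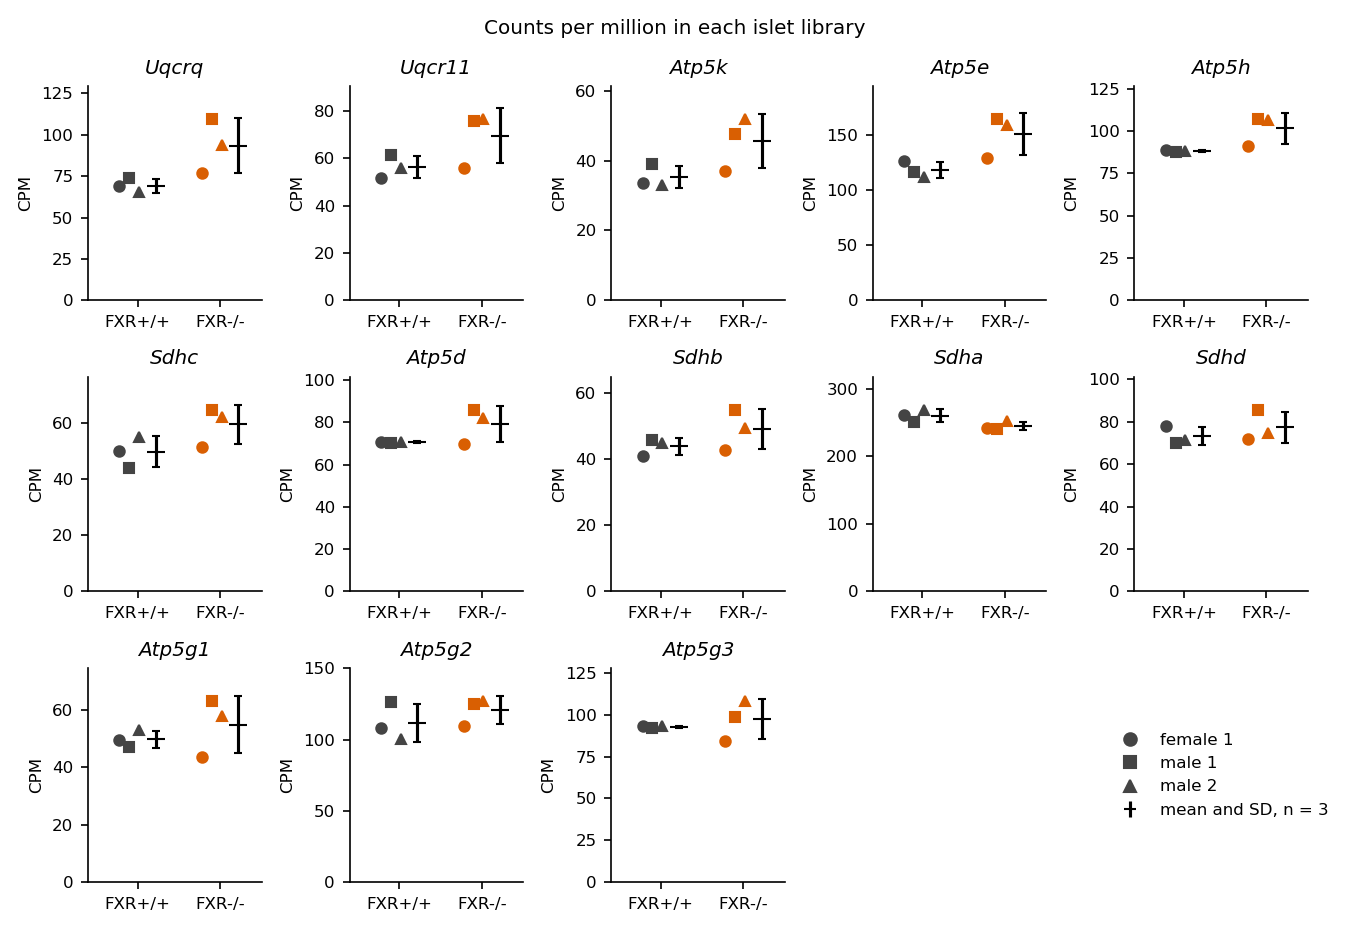
CPM (y axis, from 0) in each FXR+/+ (grey) and FXR-/- (orange) library for the 8 genes of lowest p, the other genes of complex II and the c subunit genes of ATP synthase, with the mean and SD of 3 libraries as a bar beside the points. The female 1 (circle) knockout point lies at or near the wild-type points in most panels, and the male 1 (square) and male 2 (triangle) knockout points lie above them for *Uqcrq*, *Uqcr11*, *Atp5k*, *Atp5e* and *Atp5h*.

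In ATP synthase, 14 of 15 genes had a positive log2 fold change, with a median of 0.12, and 3 were at an unadjusted p under 0.05. The catalytic head is built of α and β subunits around a central stalk of γ, δ and ε. *Atp5e* encodes ε, the smallest of them, and lies at chr2:174461072-174464105 on the minus strand. It read 127, 117 and 112 CPM in FXR+/+ and 129.5, 165 and 159.8 CPM in FXR-/-. The groups did not overlap, but the female knockout value exceeded the highest wild-type value, also from the female, by little (log2 fold change 0.35 ± 0.11 SE, 1.27-fold, unadjusted p = 0.0144, adjusted p = 0.430 in edgeR). *Atp5d*, which encodes δ, read 70.8, 70.1 and 71.0 CPM in FXR+/+ and 69.9, 86.1 and 82.2 CPM in FXR-/-. Its wild-type libraries were nearly equal, and the female knockout library lay just below them (log2 fold change 0.16 ± 0.08 SE, adjusted p = 0.511 in edgeR, and 0.25 without either female library). The other head subunits, made from longer transcripts, differed less: *Atp5a1* (α) averaged 461 ± 9.78 CPM in FXR+/+ and 490.1 ± 36.7 CPM in FXR-/-, *Atp5b* (β) 427 ± 24.9 and 456 ± 47.0 CPM, and *Atp5c1* (γ) 94.0 ± 0.674 and 93.4 ± 1.88 CPM (SD, n = 3 each).

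The peripheral stalk holds the head still against the turning rotor. *Atp5h* encodes its subunit d and lies at chr11:115415689-115419962 on the minus strand. It read 88.7, 87.6 and 88.2 CPM in FXR+/+ and 91.3, 107 and 107 CPM in FXR-/-. The wild-type libraries were nearly equal (SD 0.578 CPM), and all knockout libraries lay above them (log2 fold change 0.20 ± 0.08 SE, 1.15-fold, unadjusted p = 0.0383, adjusted p = 0.469 in edgeR). The other stalk genes had overlapping groups: *Atp5f1*, which encodes subunit b, averaged 100.2 ± 6.08 and 102 ± 9.20 CPM, *Atp5j* (coupling factor 6) 85.5 ± 0.725 and 94.7 ± 9.43 CPM, and *Atp5o*, the oligomycin sensitivity subunit at the top of the stalk, 47.5 ± 5.24 and 52.4 ± 8.96 CPM.

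Around the membrane rotor lie small subunits with a single membrane span, some of which join ATP synthases into dimers. *Atp5k*, which encodes subunit e, lies at chr5:108433244-108434448 on the minus strand. It read 33.7, 38.9 and 33.1 CPM in FXR+/+ and 36.9, 47.5 and 52.0 CPM in FXR-/-. The female knockout value lay between wild-type values, and the male ones above all of them (log2 fold change 0.36 ± 0.11 SE, 1.28-fold, unadjusted p = 0.0132, adjusted p = 0.430 in edgeR). *Atp5l*, which encodes subunit g, its partner in the dimer contact, averaged 106 ± 10.5 and 115 ± 9.03 CPM, and *Atp5j2* (subunit f) 61.4 ± 0.555 and 65.9 ± 6.47 CPM, neither at an unadjusted p under 0.05. The genes that only carry the name did not differ beyond their spread: *Atp5s*, which encodes a coupling factor, averaged 9.81 ± 0.687 and 9.59 ± 0.813 CPM and *Atp5sl* 17.5 ± 2.85 and 17.8 ± 0.896 CPM.

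The c ring of the rotor is encoded by *Atp5g1*, *Atp5g2* and *Atp5g3*, which give the same mature subunit from precursors with different import sequences. *Atp5g1* read 49.7, 47.0 and 52.9 CPM in FXR+/+ and 43.8, 63.2 and 57.7 CPM in FXR-/-, with the female knockout library the lowest of all 6. *Atp5g2* read 108, 126 and 101 CPM in FXR+/+ and 109, 125 and 127 CPM in FXR-/-. *Atp5g3* read 93.0, 91.8 and 93.0 CPM in FXR+/+ and 84.4, 98.8 and 108 CPM in FXR-/-. In all 3 genes the groups overlapped, and the adjusted p in edgeR was 0.685, 0.680 and 0.798. Per kilobase of exon, *Atp5g2* made up 48.1% ± 3.45 of the c subunit signal in FXR+/+ and 48.6% ± 1.41 in FXR-/- (SD, n = 3), *Atp5g3* 35.8% ± 1.84 and 34.9% ± 1.17, and *Atp5g1* 16.1% ± 1.63 and 16.4% ± 1.56. The differences were smaller than the spread between libraries (two-sided exact permutation test, p = 0.8 for *Atp5g1* and *Atp5g2* and p = 0.5 for *Atp5g3*, over 20 relabellings, of which the smallest p possible is 0.1). The order *Atp5g2*, *Atp5g3*, *Atp5g1* was the same in all 6 libraries. The size of a share depends on the length taken for the gene: with the median length of GENCODE transcripts, a setting chosen after seeing the data, *Atp5g1* made up 6.28% ± 0.687 and 6.42% ± 0.684, and the order was the same.

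**Figure D3:**
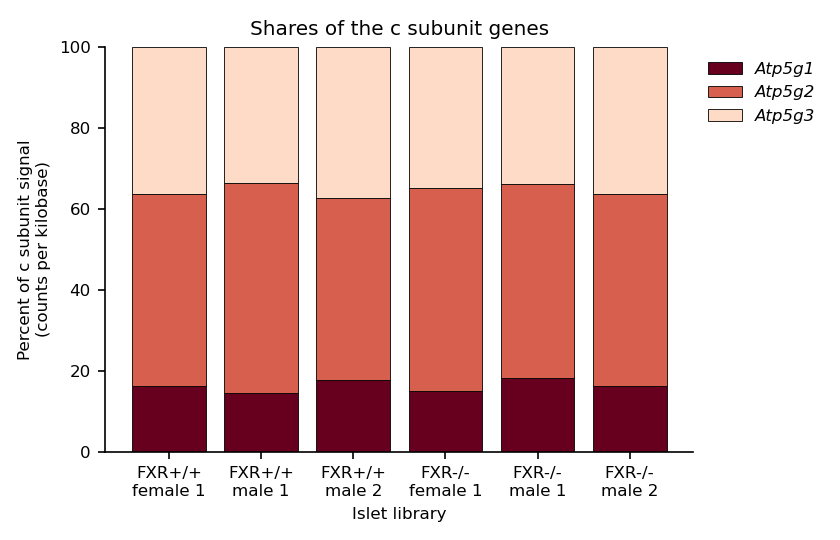
Share of *Atp5g1*, *Atp5g2* and *Atp5g3* (stacked bars, percent, from 0 to 100) in the summed counts per kilobase of exon of the c subunit genes, for each of the 6 islet libraries (x axis). *Atp5g2* holds 45.1% to 51.9% and *Atp5g1* 14.4% to 18.1% of every library, with no separation of the genotypes.

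Levels per kilobase of exon allow the genes to be set beside each other. In FXR+/+ islets *Atp5e* was the highest at 286 ± 18.4 CPM per kilobase (SD, n = 3), followed by *Atp5b* at 227 ± 13.3, *Atp5l* at 206 ± 20.5 and *Atp5a1* at 189.7 ± 4.02. The gaps between *Atp5l* and its neighbours on either side were about as wide as its own SD. At the low end, *Atp5s* stood at 6.60 ± 0.463 and *Atp5sl* at 7.32 ± 1.19 CPM per kilobase, and the lowest subunit genes were *Cyc1* at 34.4 ± 2.25, *Uqcrc1* at 38.5 ± 2.11 and *Sdhb* at 40.9 ± 2.34. *Uqcrc1* and *Sdhb* differed by about their SD. The genes of the α and β subunits, of which each head holds several copies, were thus below that of ε. These values rest on the exons listed in the deposited exon table. With GENCODE median transcript lengths the 4 highest genes kept their order, while the lowest subunit genes were *Sdhc* at 15.7 ± 1.77 and *Atp5g1* at 18.8 ± 1.11 CPM per kilobase, and *Uqcrq* stood at 45.6 ± 2.76.

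The female pair and the male pairs gave different values. Libraries were paired by sex and number, a pairing that the labels do not state. The median log2 ratio of the 30 genes was -0.03 in the female 1 pair, 0.25 in the male 1 pair and 0.18 in the male 2 pair, beside 0.0026, -0.0025 and 0.02 for all tested genes. In the female pair 11 of the 30 were higher in FXR-/-, in the male 1 pair 25 and in the male 2 pair 28. In all 3 pairs 8 of the 30 were higher, beside 20.4% of all genes: *Uqcrq*, *Uqcr11*, *Atp5k*, *Atp5e*, *Atp5h*, *Sdhb*, *Sdhc* and *Cyc1*. Only *Sdha* of the 30 was lower in all 3, beside 18.9% of all genes. With the male libraries alone, 8 of the 30 were higher at an unadjusted p under 0.05, beside 4.76% of all genes: *Uqcrq*, *Uqcr11*, *Atp5k*, *Atp5e*, *Atp5h*, *Uqcr10*, *Atp5d* and *Sdhc*. None of them passed adjustment. The test of the difference itself, an interaction of genotype and sex, gave an unadjusted p under 0.05 for *Atp5e* alone (unadjusted p = 0.0302, adjusted p = 1.00 in edgeR), beside 1.48% of all genes, so that a difference between the sexes was not shown. With 1 female pair, sex and that pair cannot be told apart.

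**Figure D4:**
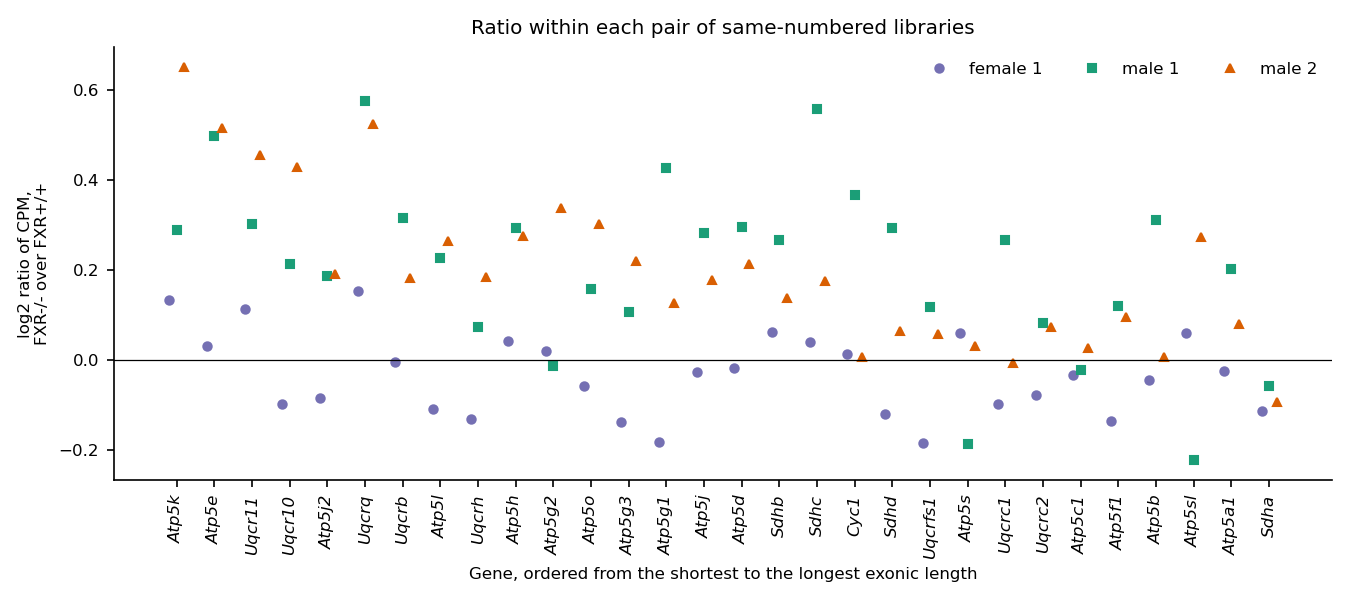
Log2 ratio of CPM, FXR-/- over FXR+/+ (y axis), in the female 1, male 1 and male 2 pairs of libraries for the 30 genes, ordered on the x axis from the shortest to the longest exonic length. Female points centre on -0.03 and male points on 0.25 and 0.18, and the male points fall toward the right of the plot.

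Among the 30 genes, fold change went with the length of the transcript. Exonic length, the union of the exons in the deposited exon table, ran from 292 bases for *Atp5k* to 2859 bases for *Sdha*. Across the 30 genes the log2 fold change and the length had a Spearman rho of -0.743 and, with log2 length, a Pearson r of -0.718, given as a description because all points share the same 6 libraries. Across 14609 tested genes with a length the rho was -0.167. No relation to length was among the results planned in advance, with either measure of length. The size of the relation depends on the length taken. With GENCODE median transcript lengths, added after seeing the data, rho was -0.491 and r -0.458 over the 30 genes, and rho -0.138 over 13827 genes. That length put *Uqcrq* at 1521 and *Atp5j2* at 955 bases, so that 4 of the 30 lay under 500 bases, 3 of them higher at an unadjusted p under 0.05, beside 13.9% of 72 genes. The following ranges use the deposited exons. Of the 6 genes under 500 bases, 4 were higher at an unadjusted p under 0.05, beside 7.81% of all 269 tested genes of that length. The median log2 fold change of the 6 was 0.32, beside 0.08 for the 269. Between 500 and 700 bases the median was 0.13 for 6 genes and 0.09 for 365, and between 700 and 1000 bases it was 0.13 for 4 genes and 0.09 for 771. Between 1000 and 2000 bases it was 0.05 for 11 genes and 0.04 for 3546, and between 2000 and 4000 bases 0.03 for 3 genes and 0.0031 for 5848. Genes over 4000 bases, none of them among the 30, had a median of -0.05. Below 500 bases the median log2 ratio of all tested genes was 0.10 in the male 1 pair, 0.19 in the male 2 pair and -0.04 in the female pair. When a trend on length was removed within each library, a setting chosen after seeing the data, 4 of the 30 were at an unadjusted p under 0.05 (*Uqcrq*, *Uqcr11*, *Atp5k* and *Atp5e*), all higher, beside 6.53% of all genes higher in that fit, and the median fell to 0.07.

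**Figure D5:**
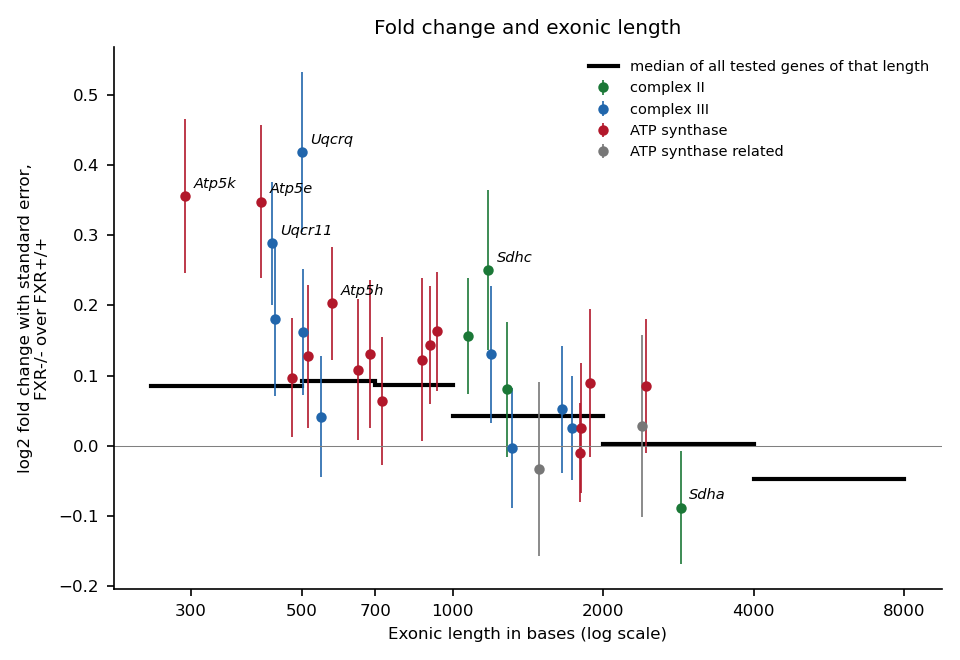
Log2 fold change of FXR-/- over FXR+/+ with its standard error (y axis) against exonic length in bases (x axis, log scale) for the 30 genes, coloured by complex, with black bars for the median of all tested genes in 6 ranges of length, of which the outermost are open-ended. The genes under 500 bases reach 0.42 where the bar stands at 0.08, and of those over 1000 bases *Sdhc*, at 0.25, lies farthest from its bar at 0.04.

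The promoters of the genes are shown for those whose values the results turn on. RefSeq promoter windows on GRCm38.p6, from 250 bases before to 50 bases after each start, were matched by gene identifier for 24 of the 30 genes and searched on both strands for 5 motifs. The NRF1 motif CGCANGCG was in 15 of 24 (62.5%), beside 9.22% of 27025 genes with a window. The ETS motif CCGGAAG, read by GABP, was in 9 of 24 (37.5%), beside 9.93% of all. The YY1 motif AAGATGGC was in 4 of 24 (16.7%), beside 3.19%, and the ERR motif TCAAGGTCA was in 2 of 24 (8.33%), beside 0.466%. An inverted repeat with a spacer of 1 base, AGGTCANTGACCT, to which FXR binds as a dimer with RXR, was in none of the 24 and in 0.0111% of all, which says only that these letters are not in these windows. NRF1, GABP, YY1 and ERR are known regulators of respiratory genes, and a match is a description, not a site. The median log2 fold change was 0.13 for the genes with the NRF1 letters and 0.09 for those without, 0.16 and 0.06 for the ETS letters, 0.06 and 0.12 for the YY1 letters, and 0.07 and 0.12 for the ERR letters.

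The 120 bases before the start are printed 5′ to 3′ for *Uqcr11*, *Atp5e*, *Atp5k* and *Atp5h*, which were higher at an unadjusted p under 0.05, and for *Sdha*, the lowest of the 30, with whole matches in capitals. No window was used for *Uqcrq*, *Sdhc*, *Cyc1*, *Uqcrb*, *Uqcrc2* and *Atp5a1*. Windows on the chromosome of *Atp5a1* were left out before matching, so the shares of all genes leave them out too.
Uqcr11, chr10:80406822-80406941, minus strand: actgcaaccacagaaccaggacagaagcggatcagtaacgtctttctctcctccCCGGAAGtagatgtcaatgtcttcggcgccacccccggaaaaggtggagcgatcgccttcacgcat
Atp5e, chr2:174464102-174464221, minus strand: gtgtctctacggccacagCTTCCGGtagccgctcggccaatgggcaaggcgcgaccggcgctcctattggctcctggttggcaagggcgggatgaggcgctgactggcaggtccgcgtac
Atp5k, chr5:108434400-108434519, minus strand: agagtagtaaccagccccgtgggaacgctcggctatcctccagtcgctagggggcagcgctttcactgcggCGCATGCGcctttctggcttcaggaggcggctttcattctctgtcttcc
Atp5h, chr11:115419920-115420039, minus strand: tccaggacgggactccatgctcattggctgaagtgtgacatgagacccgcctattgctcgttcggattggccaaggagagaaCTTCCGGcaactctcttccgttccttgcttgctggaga
Sdha, chr13:74350241-74350360, minus strand: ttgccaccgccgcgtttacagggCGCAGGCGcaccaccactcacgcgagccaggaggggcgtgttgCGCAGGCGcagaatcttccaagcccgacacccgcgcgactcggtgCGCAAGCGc

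The capitals in *Uqcr11* and *Atp5e* and in *Atp5h* mark the ETS letters (on the reverse strand in *Atp5e* and *Atp5h*), and those in *Atp5k* the NRF1 letters. *Sdha* has 3 NRF1 matches within 97 bases of its start and the lowest fold change of the 30. In *Uqcr11* an NRF1 match begins 5 bases before the start and runs past it, and is not in capitals. Matches outside the printed bases are an ETS match in *Atp5k*, 12 bases after the start, and an NRF1 match in *Atp5h*, 140 bases before it, so that *Uqcr11*, *Atp5k* and *Atp5h* each hold both motifs. *Atp5j*, *Atp5l* and *Sdhd* also hold both, and none of them reached an unadjusted p under 0.05 in edgeR.

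Several of the 30 genes share their start region with a gene on the opposite strand in GENCODE vM21. *Sdha* starts 29 bases from *Ccdc127*, which had a log2 fold change of -0.20 ± 0.11 SE (unadjusted p = 0.101). *Atp5h* starts 166 bases from *Kctd2* (log2 fold change 0.02 ± 0.08 SE), and *Sdhd* 98 bases from *Timm8b*, a gene of mitochondrial protein import (log2 fold change 0.05 ± 0.10 SE). Exons of *Atp5f1* overlap those of *Wdr77* by 337 bases, and those of *Atp5j* overlap *Gabpa* by 397 bases. *Wdr77* had the opposite sign to *Atp5f1* (log2 fold change -0.30 ± 0.09 SE, unadjusted p = 0.0127, adjusted p = 0.430 in edgeR). The use of strand in counting is not given in the sources used here, and reads in such overlaps cannot be assigned with certainty. GENCODE vM21 also names 6 processed pseudogenes of 4 of the genes (*Atp5c1*, *Atp5k*, *Atp5l* and *Uqcrh*), none of which has a line in the count table, and how reads that match both were counted is likewise not given.

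The deposited exon counts give the same libraries at lower depth. They hold 187 exons of the 30 genes, of which 54 passed the filter, out of 26998 exons tested. None was higher at an unadjusted p under 0.05 and 1 was lower, exon 3 of *Atp5j* with 6 to 26 counts per library (log2 fold change -0.995 ± 0.42 SE, adjusted p = 0.634 in edgeR), beside 4.68% of all exons higher and 3.11% lower at that threshold. Both exons of *Uqcrq* were tested and had log2 fold changes of 0.51 and 0.69, with the lowest adjusted p at 0.650. The exon counts amounted to 0.315% of the gene counts of *Atp5e*, 0.599% of those of *Atp5k*, 1.01% of *Uqcr11* and 2.47% of *Atp5h*, against 67.9% for *Uqcrfs1*. Among the other short genes they amounted to 21.5% for *Uqcr10*, 10.2% for *Uqcrq* and 1.52% for *Atp5j2*. Some long genes were also low, such as *Uqcrc1* at 2.39%. Of exon counts summed per gene, 28 of the 30 genes could be tested and only *Sdhc* was higher at an unadjusted p under 0.05, beside 5.78% of all genes in that fit. *Atp5e* and *Atp5k* were the ones not tested. In that fit *Uqcrq* had a log2 fold change of 0.52 (unadjusted p = 0.112) and *Uqcr11* one of 0.54 (unadjusted p = 0.176), both above their values from gene counts, and *Atp5h* one of -0.09.

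The nuclear genes of the other complexes of the chain gave medians of similar size. Of 37 genes of complex I, 7 were higher and 1 was lower at an unadjusted p under 0.05, with a median log2 fold change of 0.11. At that threshold 6.18% of all tested genes were higher and 4.15% lower, shares that also stand beside the counts of the lists below. Of 15 tested genes of complex IV, 3 were higher and none lower, with a median of 0.16. None passed adjustment. The mitochondrial genome encodes cytochrome b of complex III and subunits a and 8 of ATP synthase. Of 13 mitochondrially encoded subunits, 0 had a line in the count table under the symbols sought, so their transcripts were not analysed here. Of 16 assembly factors of complexes II, III and ATP synthase, 1 was higher and none lower, with a median of -0.01. It was *Uqcc2*, which supports the making of cytochrome b, at 85.2, 86.0 and 82.3 CPM in FXR+/+ and 90.4, 113 and 109 CPM in FXR-/- (log2 fold change 0.29 ± 0.09 SE, adjusted p = 0.430 in edgeR), without overlap of the groups. A list of 9 genes under other names held partners of ATP synthase and other mitochondrial genes, among them that of cytochrome c. Of these, *Usmg5*, a small subunit of the membrane part of ATP synthase, was higher (59.9 ± 1.67 against 67.7 ± 4.04 CPM, SD, n = 3, log2 fold change 0.17 ± 0.07 SE, unadjusted p = 0.0490 in edgeR, and 0.0582 with the replicate block). *Mgarp*, a mitochondrial protein of low level here, was lower (1.15 ± 0.236 against 0.524 ± 0.141 CPM, unadjusted p = 0.0154 in edgeR). Neither passed adjustment.

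Ubiquinone is the electron carrier between complexes II and III. Of 13 tested genes for its synthesis, *Adck3*, a kinase-like protein needed for ubiquinone synthesis, was higher at 30.1, 30.6 and 23.8 CPM in FXR+/+ and 45.2, 41.3 and 36.9 CPM in FXR-/-, without overlap (log2 fold change 0.55 ± 0.11 SE, unadjusted p = 0.00172, adjusted p = 0.280 in edgeR). *Coq10b*, a ubiquinone-binding protein, was lower at 17.1, 24.2 and 36.6 CPM in FXR+/+ and 9.76, 18.3 and 16.4 CPM in FXR-/-, with overlap between the groups and the knockout library lower in each pair (log2 fold change -0.81 ± 0.16 SE, unadjusted p = 0.00118, adjusted p = 0.246 in edgeR). The median of the 13 was 0.04. None of 17 regulators of mitochondrial biogenesis was at an unadjusted p under 0.05 (median -0.05), although *Tfb2m*, a factor of mitochondrial transcription, was lower with the replicate block (log2 fold change -0.25, unadjusted p = 0.0354). None of 22 genes that mark mitochondrial mass and cristae was at that threshold in either fit (median -0.01). The summed levels of the 22 genes overlapped, at 1386 to 1479 CPM in FXR+/+ and 1302 to 1468 CPM in FXR-/-.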

How the data were processed

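Islets from 3 FXR+/+ and 3 FXR-/- libraries were compared. The authors deposited whole-number counts per gene and per exon (positions of GRCm38), and the submitters' notes name HISAT, while version, annotation, strand and counting rule are not given in the sources used here. Further deposited tables hold the authors' own fold changes and p-values and were not used. No column was left unmapped (0) and 0 lines lacked a gene.

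Tests on gene counts ran in edgeR 4.0.16 under R 4.3.3 (filterByExpr by genotype with minimum count 10 and total 15, TMM, glmQLFit and glmQLFTest, terms for sex and genotype, 3 residual degrees of freedom) over all genes, with Benjamini-Hochberg adjustment and a threshold of 0.05. Exon counts used the same model. The interaction test added a term for sex by genotype, and males alone were fitted without the sex term. Both of these fits left fewer residual degrees of freedom. Standard errors come from the F statistic, and shares used an exact permutation test. Alternatives were a replicate block, no sex term, an acinar term, males alone, other scalings and filters, legacy dispersions, DESeq2 1.42.0, summed exon counts, omission of the 20 most abundant genes or of each library, a length trend removed by loess (span 0.5), and GENCODE in place of deposited exon lengths. Deviations of same-numbered libraries from their genotype means correlated at 0.373, 0.419 and 0.346 across genes and those of others at 0.0628 or less. The labels state no pairing, and same-numbered libraries were taken as pairs on these correlations. Coming from the same counts, the correlations cannot establish a pairing, and the block rests on it. The acinar markers took 14.5% and 15.0% of counts in the male 1 libraries and 5.19% to 9.41% in the others. Their part in the correlations was not tested.

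Lists of assembly factors, ATP synthase partners with other mitochondrial genes, biogenesis regulators, ubiquinone synthesis, mitochondrial mass and cell markers were described by counts and medians. The members and lists were chosen with earlier results of these data known. Every member is named, and values per library are given for the 8 of lowest p and for the complex II and c subunit genes. Genes of other lists at an unadjusted p under 0.05 are named in part. The acinar, ductal and macrophage markers and the complex I and IV genes were counted without names. Of the endothelial markers only *Plvap* is named. Also named are the insulin genes, *Gabpa* as a neighbour, and *Tfb2m* and *G6pc2*, which reached that threshold only with the block. With 20629306 to 30139235 counts per library, precision rests on the spread between 3 libraries per genotype.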

Additional observations from a re-analysis of the deposited data

How the results depend on the processing

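The median log2 fold change of the 30 genes stayed positive in all 21 alternatives, from 0.02 with library size alone to 0.19, and no alternative gave any of the 30 an adjusted p under 0.05. With the replicate block the number of all genes at an unadjusted p under 0.05 was 2347 and the number at an adjusted p under 0.05 was 23, in place of 1510 and 0. With the length offset and the replicate block these numbers were 2369 and 7. The adjusted number was 7 with an acinar term, 4 with exon counts summed per gene and 158 with DESeq2. Leaving out each library in turn gave 863 to 2176 genes at an unadjusted p under 0.05, 0 after adjustment each time, and 1 to 8 of the 30. Of the 30, 8 were at that threshold in males alone, 3 with library size alone and 1 with exon counts summed per gene. With library size alone 29.0% of genes at that threshold were higher in FXR-/-, against 59.8% with TMM, as the median of all genes moved to -0.09.

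Summed exon counts reversed *Atp5h* (-0.0932), *Sdhb* (-0.0470) and *Sdhd* (-0.0324), library size alone reversed *Atp5g3* (-0.0305) and *Sdhd* (-0.0165), and the length offset reversed *Atp5g3* without the block (-0.0011) and with it (-0.0015). Leaving out each library in turn gave *Atp5g3* -0.0040 to 0.16 and *Sdhd* -0.0091 to 0.18. The difference in the share of *Atp5g3* among the c subunit genes, -0.847 percentage points, was -2.81 with summed exon counts and ran from -1.88 (without FXR+/+ male 1) to -0.134 when libraries were left out. Those of *Atp5g2* (0.547) and *Atp5g1* (0.301) changed sign when libraries were left out, at -0.947 (without FXR+/+ male 2) to 2.43 (without FXR+/+ male 1) and -0.547 (without FXR+/+ male 1) to 1.08 (without FXR+/+ male 2). With summed exon counts they were 2.88 and -0.0726. The causes were not tested. Of all 30 genes, 9 changed sign with library size alone, none of them over 0.09 in size before, 7 of the 28 tested with summed exon counts, 2 with the length offset (with or without the block), 2 with an acinar term, 2 in males alone and 2 or 3 when a library was left out. The other settings changed the sign of none.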

Other observations

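*Mafa* and *Nkx6-1*, transcription factors of mature β-cells, were the β-cell markers at an unadjusted p under 0.05, joined with the replicate block by *G6pc2*, which was lower. *Mafa* read 314, 317 and 324 CPM in the FXR+/+ female 1, male 1 and male 2 libraries and 446, 477 and 494 CPM in the FXR-/- libraries, without overlap (log2 fold change 0.57 ± 0.09 SE, adjusted p = 0.216 in edgeR). The 12 β-cell markers had a median log2 fold change of 0.06, the 7 α-cell markers 0.14 and the 4 δ-cell markers 0.13. The 7 stellate and fibroblast markers had a median of 0.87 with none at that threshold (6 higher with the replicate block, beside 9.82% of all genes in that fit). Their median log2 ratio was 1.72 in the female 1 pair and 2.33 in the male 2 pair but -0.16 in the male 1 pair, where 2 of the 7 were higher in FXR-/-. The 5 tested ductal markers had a median log2 fold change of 0.59 with 3 higher, beside 6.18% of all genes higher at that threshold. The 2 tested striated muscle markers had a median of 0.12 with none. The 3 tested lymphocyte markers had a median of -0.78 with *Cd79a* lower, beside 4.15% of all genes lower. By pair their median log2 ratio was -0.17 (female 1), -1.87 (male 1) and 0.39 (male 2).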
